A study of Homo sapiens with 8 samples.

Results

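The genes described here are the targets and regulators of the transcription factor ATF4 together with the cytosolic aminoacyl-tRNA synthetases, followed by their ribosome footprints in 293T cells. A list of 31 names was joined to every synthetase whose symbol fits the pattern of the cytosolic enzymes. This gave 49 genes of 17179 with a row, 29 from the list and 20 synthetases. CHAC1 and SLC3A2 were not analysed here. By role they fell into 11 regulators and feedback factors, 5 amino acid transporters, 6 enzymes of serine and one-carbon metabolism, 3 other targets, 4 eIF2 kinases and 20 synthetases.

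293T is a line of human embryonic kidney cells with the large T antigen of SV40. Its 8 ribosome profiling libraries form 4 groups of 2. Cells with shNBD1, a short hairpin RNA labelled as non-cleaving, were set against the control for shRNA (titled Scr), and cells with miRNA inhibitors against the control for inhibitors (titled NC). All cells were grown in high-glucose medium with serum and antibiotics and lysed with cycloheximide, which holds ribosomes in place. The labels give neither the delivery nor the duration of a treatment. Total counts ran from 11218980 to 19854218 per library. The NBD1 reporter row stood at 7040 and 7233 CPM (counts scaled to the size of the library) with shNBD1 against 9129 and 9082 CPM in the shRNA control, and at 8212 and 7747 CPM with the inhibitors against 8339 and 7954 CPM in their control. Of 7 markers chosen for 293T cells, 6 had a row and none of them was at 0, with VIM and CDH2 the clearest. NEFM and PAX2 stayed under 4 CPM. The summed level of 11 markers of other cell types ran from 430 to 437 CPM with shNBD1, 369 to 399 CPM in the shRNA control, 460 to 511 CPM with the inhibitors and 566 to 571 CPM in their control, mostly from ACTA2. PTPRC, the leukocyte marker, was at 0 in all but the inhibitor control. Between the control groups CD68, a macrophage protein, was higher in the shRNA control at 1.51 ± 0.13 on the log2 scale. ACTA2, smooth muscle actin, was lower at -0.76 ± 0.07. These were 1 higher and 1 lower of 5 tested markers of other cell types, against 13.5% and 13.6% of all genes. The lowest of the 5, at -1.66, did not pass. Of the 6 293T markers 2 were lower, LIN28B at -0.82 ± 0.13 and CDH2 at -0.23 ± 0.07, against 13.6% of all genes. The others did not pass, and 2 of the 6 lay above 0, at up to 0.10. With shNBD1 4 of the 6 293T markers rose, against 9.18% of all genes tested. These were VIM at 0.76 ± 0.08, LIN28B at 1.08 ± 0.13, INA at 0.52 ± 0.15 and CDH2 at 0.29 ± 0.07. NEFM at -0.52 ± 0.35 and PAX2 at -0.05 ± 0.25 did not pass. Of 5 tested markers of other cell types 1 fell, CD68 at -0.52 ± 0.12, against 9.15% of all genes. KRT14 at 1.60 ± 0.73, COL1A1 at 0.50 ± 0.23, ACTA2 at 0.19 ± 0.07 and PECAM1 at -0.08 ± 0.45 did not pass. The part of these shifts in the results was not tested. Whether the libraries of a group stem from separate cultures is not in the labels, and the p-values reflect a spread between libraries that may be technical. With no matched RNA libraries used here, more mRNA and more ribosomes per mRNA cannot be told apart.

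ATF4 is the main effector of the integrated stress response. Each of the 4 eIF2 kinases senses a different stress and phosphorylates the initiation factor eIF2, which lowers general initiation but lets ribosomes pass the inhibitory upstream open reading frame of ATF4 and translate it. ATF4 then pairs with C/EBP partners on composite elements and raises genes that import, make and charge amino acids, which include most cytosolic synthetases. The counts hold no positions, so footprints on the upstream frames of ATF4 or PPP1R15A cannot be set apart from those on the coding sequence.

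The composite element, known as CARE, has the core TGATGNAA. It was searched on both strands (TTNCATCA on the other) in RefSeq promoter windows of GRCh38.p14, from 250 bases before to 50 after each start. Windows were given for 39 of the 49 genes, and the core lay in those of 12 (30.8%), against 289 of 10373 tested genes with a window (2.79%) and 3.62% of all 35116 windows. Among synthetases it was 7 of 16, and among the others 5 of 23. Many of these genes are known as ATF4 targets in part through such elements, so the share is a description of the list and no independent finding. The 7 matches that lie wholly before the start are shown with their surroundings, as examples of the letters that ATF4 is known to bind. Sequence outside the windows was not searched, so a gene without a match here may still hold the core. Each is read 5′ to 3′ on the strand of the gene, with the core or its other strand in capitals. RefSeq lists several starts for some genes, and the matches in ASNS, GARS1, CEBPG and SLC1A5 lie within the full span of the gene, before the start of a shorter transcript. That of ASNS is its known nutrient-sensing element.
ASNS (chr7:97872443-97872502, minus strand): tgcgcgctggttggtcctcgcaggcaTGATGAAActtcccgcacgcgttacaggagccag
GARS1 (chr7:30594819-30594877, plus strand): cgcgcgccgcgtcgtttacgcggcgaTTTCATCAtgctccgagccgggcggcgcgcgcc
AARS1 (chr16:70289660-70289719, minus strand): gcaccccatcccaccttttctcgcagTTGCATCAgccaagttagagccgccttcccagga
IARS1 (chr9:92293698-92293736, minus strand): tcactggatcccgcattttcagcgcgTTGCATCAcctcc
CEBPG (chr19:33374045-33374104, plus strand): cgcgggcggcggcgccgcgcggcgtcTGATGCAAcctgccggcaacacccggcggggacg
SLC1A5 (chr19:46784878-46784937, minus strand): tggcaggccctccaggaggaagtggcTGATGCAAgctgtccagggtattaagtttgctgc
ATF3 (chr1:212565190-212565249, plus strand): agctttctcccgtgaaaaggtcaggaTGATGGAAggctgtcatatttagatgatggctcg
The other 5 matches, in CARS1, MARS1, NARS1, SLC7A1 and TARS1, touch or follow the start. Of the 21 genes with a window that were higher in the shRNA control than in the inhibitor control, as described next, 6 held the core, and of the 16 that did not pass the threshold there, 5 did.

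The widest difference among these genes lay between the control groups. Relative to the inhibitor control, the shRNA control had more footprints on 26 of the 49 genes and fewer on 2, ATF3 and QARS1. Over all 13306 genes tested, 27.1% were called in this comparison, 13.5% higher and 13.6% lower (edgeR's quasi-likelihood test, adjusted p under 0.05). The median log2 fold change of the 49 genes was 0.32, against 0.00 over all genes. Both shRNA control libraries lay above both of the inhibitor control for 34 genes and below them for 6, against 33.7% and 33.4% of all genes. The largest called increases were those of SLC7A11 (1.72), CEBPB (1.11), STC2 (1.02), SLC38A2 (0.92) and ASNS (0.90). The control groups differ in what was delivered and in anything else that set the arms apart, and these cannot be told apart. The count rests on both shRNA control libraries. Without its replicate 1 it was 6 higher and 1 lower, with 3.75% and 4.19% of all genes called, and without its replicate 2 it was 8 and 0, with 4.48% and 4.85%. The median of the 49 genes stayed at 0.32 in both.

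**Figure D1:**
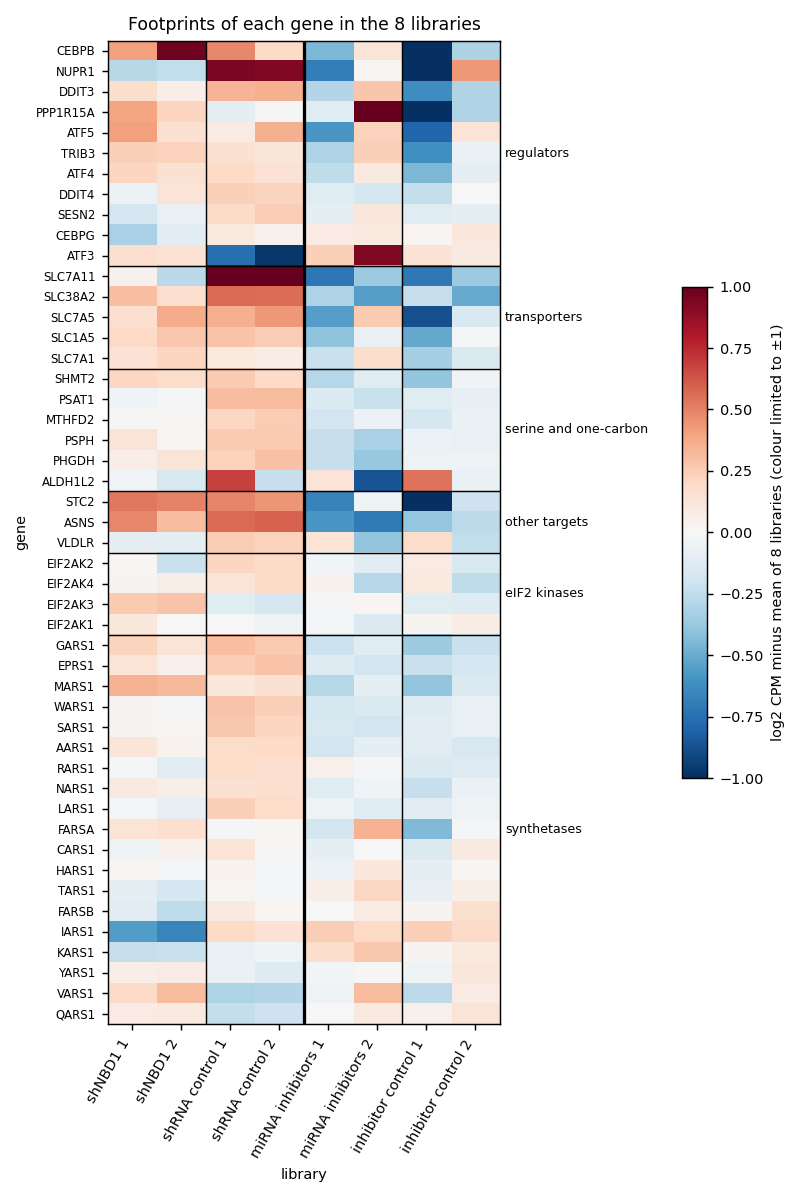
Each row is 1 of 48 genes and each column 1 of the 8 libraries, with colour for log2 CPM minus the mean of that gene over the 8 libraries, limited to 1 in either direction. SLC38A2, SLC7A5, SLC1A5, ASNS and STC2 are red in the 4 libraries of the shRNA arm and mostly blue in the inhibitor arm, SLC7A11 is red in the shRNA control, and IARS1 is blue with shNBD1 only.

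ATF4 itself had 164.5 and 158 CPM with shNBD1 and 163 and 157 CPM in its control, against 119 and 151 CPM with the inhibitors and 104 and 133 CPM in theirs. All 4 libraries of the shRNA arm, which holds shNBD1 and its control, lay above all 4 of the inhibitor arm. Between the control groups its log2 fold change was 0.44 ± 0.12 (SE; adjusted p = 0.027, edgeR). It fell short of the threshold without either shRNA control library or without inhibitor control replicate 1, with an adjusted p of up to 0.151. The same arrangement of libraries, all 4 above all 4, held for 20 of the 49 genes and the reverse for 1, KARS1, against 14.4% and 15% of all genes tested.

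Among the regulators, against 13.5% of all genes higher and 13.6% lower, 5 of 11 were higher in the shRNA control and 1 was lower. Beside ATF4 these were CEBPB, a C/EBP factor, at 1.11 ± 0.32 on the log2 scale, DDIT3, the C/EBP partner known as CHOP, at 0.80 ± 0.19, and DDIT4 and SESN2, inhibitors of mTORC1, at 0.34 ± 0.10 and 0.32 ± 0.09. CEBPB rested on few counts, with 12.8 and 10.5 CPM in the shRNA control against 3.42 and 7.35 CPM in the inhibitor control, and it lost its call in 4 of 11 alternatives. ATF3, a stress-induced repressor of the same family, ran the other way. It had 17.9 and 15.4 CPM in the shRNA control against 33.3 and 32.2 CPM in the inhibitor control, a log2 change of -0.97 ± 0.19 (adjusted p = 0.00455, edgeR). TRIB3, a pseudokinase that restrains ATF4, gave 0.45 ± 0.19, NUPR1 1.07 ± 0.40, ATF5 0.47 ± 0.29 and PPP1R15A, which directs dephosphorylation of eIF2, 0.61 ± 0.35. These did not pass, and CEBPG, a partner of ATF4, stood at 0.01 ± 0.09.

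Of the 5 transporters 4 were higher in the shRNA control, against 13.5% of all genes. SLC7A11, which imports cystine (chromosome 4, 138164097 to 138242349, GRCh38), had 14.0 and 11.3 CPM with shNBD1 and 31.2 and 31.1 CPM in the shRNA control, and in the other arm 8.25 and 10.6 CPM with the inhibitors and 8.28 and 10.6 CPM in their control. Its shRNA control libraries stood apart from the other 6. The fold over the inhibitor control was 3.3, or 1.72 ± 0.15 on the log2 scale (adjusted p = 6.97e-05, edgeR). SLC38A2, a carrier of neutral amino acids that is induced by amino acid shortage, had 559.6 and 558 CPM against 324 and 267 CPM, a log2 change of 0.92 ± 0.10. SLC7A5, the leucine exchanger, stood at 0.86 ± 0.25 and SLC1A5, the glutamine carrier, at 0.51 ± 0.14, while SLC7A1, the arginine carrier, did not pass at 0.32 ± 0.11.

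Of the 6 enzymes that make serine and one-carbon units 5 were higher, against 13.5% of all genes, and their differences were smaller. PSAT1, the aminotransferase of serine synthesis, had 191 CPM in each shRNA control library against 141 and 146 CPM in the inhibitor control, a log2 change of 0.41 ± 0.06 (adjusted p = 0.00155, edgeR). PHGDH, the first enzyme of the pathway, stood at 0.32 ± 0.07, PSPH, the last, at 0.33 ± 0.08, and the mitochondrial enzymes SHMT2 and MTHFD2 at 0.43 ± 0.11 and 0.35 ± 0.07. ALDH1L2 was low, at 1.797 to 5.25 CPM over all libraries, and stood at 0.06 ± 0.33. ASNS, asparagine synthetase (chromosome 7, 97851677 to 97928441), had 208 and 212 CPM in the shRNA control against 107 and 117 CPM, a log2 change of 0.90 ± 0.08 (adjusted p = 8.04e-05). STC2, a secreted glycoprotein of the stress response, stood at 1.02 ± 0.23 and VLDLR, a lipoprotein receptor, at 0.26 ± 0.16, which did not pass. None of the 4 eIF2 kinases passed, with log2 fold changes from -0.07 for EIF2AK1 to 0.23 for EIF2AK2.

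The synthetases split. Of 20, 10 were higher in the shRNA control, 1 was lower and 9 did not pass, against 13.5% of all genes higher and 13.6% lower. GARS1, for glycine, led with 278 and 271 CPM against 176 and 193 CPM, a log2 change of 0.57 ± 0.07 (adjusted p = 0.000483, edgeR). EPRS1, the fused enzyme for glutamate and proline, followed at 0.47 ± 0.06 and MARS1, for methionine, at 0.39 ± 0.09. WARS1, SARS1, AARS1, RARS1, NARS1 and LARS1 ran from 0.29 to 0.36. QARS1, for glutamine, was lower, with 151.5 and 155 CPM against 184 and 195 CPM, at -0.31 ± 0.07 (adjusted p = 0.00765). TARS1 and IARS1 hold the CARE core in their windows and stood at 0.01 ± 0.07 and -0.04 ± 0.07. Of the 28 calls among all 49 genes, those of SLC7A11, ASNS, SLC38A2, GARS1, EPRS1 and PSAT1 held in all 11 alternatives, and the others fell short in 1 to 4 of them, mostly without a shRNA control library.

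**Figure D2:**
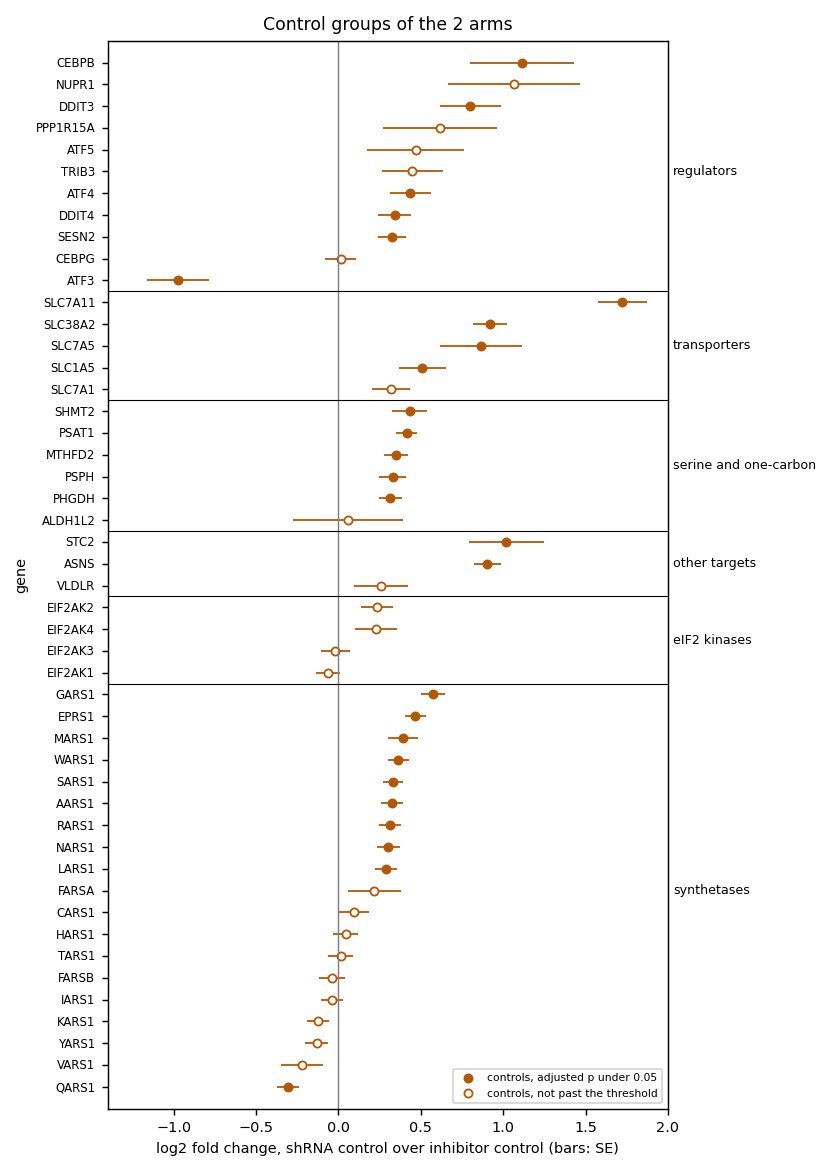
Log2 fold change of the shRNA control over the inhibitor control for 48 genes, grouped by role, with bars for the SE and filled points for an adjusted p under 0.05 in edgeR's test. Most points lie right of 0, SLC7A11 farthest at 1.72, while ATF3 at -0.97 and QARS1 at -0.31 are the filled points on the left.

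With shNBD1, 4 of the 49 genes rose and 9 fell relative to the shRNA control, which is 26.5%, against 18.3% of all genes tested (9.18% higher and 9.15% lower). The clearest changes were falls of the cystine transporter SLC7A11 and of the isoleucyl-tRNA synthetase IARS1 and a rise of ATF3. ATF4 stood at 0.01 ± 0.12 on the log2 scale (adjusted p = 0.965, edgeR), with overlapping libraries. The median log2 fold change of the 49 genes was -0.12 against 0.00 over all genes. Both shNBD1 libraries lay below both controls for 28 genes and above them for 11, against 34.3% and 34.7% of all genes. IARS1 and SLC7A11 passed in all 10 alternatives. ATF3 fell short without shRNA control replicate 2 (adjusted p = 0.065), and the other 10 each fell short when any 1 of the 4 libraries was left out, where 0 or 1 gene rose and 2 fell in place of 4 and 9, and 1.96% to 3.95% of all genes were called in each direction. Other fits changed the counts over all genes as well. With DESeq2 4 of the 49 genes rose and 7 fell (6.46% and 6.29% of all genes), and RARS1 and SARS1 no longer passed. With RLE size factors 4 rose and 8 fell (9.17% and 9.09%). With the replicate number as a block, 5 of the 49 genes rose and 14 fell (13% and 12.6% of all genes), and with only the 4 libraries of the shRNA arm 9 rose and 23 fell (21.5% and 20.4%).

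Of the 11 regulators 1 rose, ATF3, and 1 fell, SESN2, against 9.18% and 9.15% of all genes. ATF3 had 33.9 and 33.3 CPM with shNBD1 against 17.9 and 15.4 CPM in the shRNA control, a log2 change of 1.01 ± 0.19 (adjusted p = 0.00576, edgeR). The inhibitor control, at 33.3 and 32.2 CPM, lay next to the shNBD1 libraries. SESN2 had 43.2 and 46.1 CPM against 55.5 and 57.5 CPM, a log2 change of -0.34 ± 0.09 (adjusted p = 0.0246), and its inhibitor-arm libraries ran from 44.5 to 52.4 CPM. NUPR1 had 0.996 and 1.02 CPM against 2.32 and 2.29 CPM, which did not pass (adjusted p = 0.0824). The remaining 8 ran from -0.29 for CEBPG to 0.37 for CEBPB and PPP1R15A without a call.

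SLC7A11 fell to 12.7 ± 1.92 CPM with shNBD1, against 31.2 ± 0.0754 CPM in the shRNA control (mean ± SD, n = 2 each). This was a log2 change of -1.30 ± 0.15 (adjusted p = 0.000458, edgeR), and both shNBD1 libraries lay above all 4 of the inhibitor arm. SLC38A2 had 465.5 and 426 CPM with shNBD1 against 559.6 and 558 CPM, a fall of -0.33 ± 0.10 whose adjusted p of 0.0491 lay at the threshold and was 0.322 at most in the alternatives. Thus 2 of 5 transporters fell, against 9.15% of all genes. The other 3 lay between -0.12 and 0.09 and did not pass. SLC7A11 is also a target of the oxidative stress factor NRF2. Among 9 tested NRF2 targets, SLC7A11 included, 3 fell, against 9.15% of all genes, with HMOX1, heme oxygenase, at -1.18 ± 0.19 and NQO1, a quinone reductase, at -0.32 ± 0.10. The other 6 did not pass, 4 of the 9 were above 0, and SRXN1, sulfiredoxin, stood at 0.83 ± 0.29. Between the controls SLC7A11 was the only one of the 9 to pass, against 27.1% of all genes.

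In serine synthesis PSAT1 fell to 149.8 and 151.5 CPM with shNBD1, against 191 CPM in each control library, at -0.34 ± 0.06 on the log2 scale (adjusted p = 0.00558, edgeR). This was 1 of 6 enzymes, against 9.15% of all genes, and the other 5 stood between -0.42 and -0.03 with no call. ASNS had 196 and 174 CPM against 208 and 212 CPM, at -0.18 ± 0.08, and VLDLR 32.7 CPM in each shNBD1 library against 41.6 and 40.9 CPM, at -0.34 ± 0.17, neither past the threshold. Of the eIF2 kinases EIF2AK3, the endoplasmic reticulum kinase PERK, rose with 29.0 and 29.5 CPM against 22.3 and 21.5 CPM, at 0.42 ± 0.09 (adjusted p = 0.0107). This was 1 of 4 kinases, against 9.18% of all genes. The inhibitor-arm libraries of EIF2AK3 lay between 22.15 and 24.6 CPM. EIF2AK2, the kinase activated by double-stranded RNA, had 85.0 and 72.1 CPM with shNBD1 against 97.3 and 96.0 CPM, which did not pass (-0.30 ± 0.10, adjusted p = 0.0603).

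Synthetases with shNBD1 held 5 that fell and 2 that rose of 20, against 9.15% and 9.18% of all genes. IARS1 (chromosome 9, 92210207 to 92293697) had 185 and 172 CPM with shNBD1 and 313 and 302 CPM in the shRNA control, and in the other arm 323 and 312 CPM with the inhibitors and 321 and 311 CPM in their control. The shNBD1 libraries stood apart from the other 6, whose groups overlapped. The log2 fold change over the shRNA control was -0.79 ± 0.07 (adjusted p = 7.34e-05, edgeR), a level 1.72-fold lower. No other synthetase moved by this much in either direction.

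LARS1, for leucine, had 255 and 243.5 CPM against 305 and 293 CPM, a log2 change of -0.26 ± 0.07. WARS1, for tryptophan, had 123 and 119.7 CPM against 148 and 143 CPM, at -0.26 ± 0.07. SARS1, for serine, had 247.5 and 246 CPM against 293 and 283 CPM, at -0.22 ± 0.06. In these genes the shNBD1 libraries lay below their controls without overlap, as they did for RARS1, for arginine, with 178 and 166 CPM against 204 and 201 CPM, at -0.23 ± 0.07. Adjusted p-values of these 4 ran from 0.0204 to 0.0336 in edgeR's test.

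The rises were those of QARS1, with 189 and 190.4 CPM with shNBD1 against 151.5 and 155 CPM, at 0.31 ± 0.07 (adjusted p = 0.0105, edgeR), and of VARS1, for valine, with 346 and 376 CPM against 243.5 and 247 CPM, at 0.56 ± 0.13 (adjusted p = 0.0136). VARS1 lies in the major histocompatibility region and had 7 rows, for alternative copies of the locus, whose counts were summed. Each row gave a rise between 0.51 and 0.63, but the rows may share reads and are no independent repeats. How reads that match several copies were assigned is not given in the sources used here. QARS1, IARS1, LARS1 and RARS1 all belong to the multi-synthetase complex, whose members thus moved in both directions, and none of its 3 scaffold proteins passed.

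The comparisons of shNBD1 and of the inhibitor control with the shRNA control share the 2 shRNA control libraries, so a deviation of these alone enters both. SLC7A11, PSAT1, SESN2, SLC38A2, LARS1, WARS1, SARS1 and RARS1 were higher in the shRNA control in one and fell with shNBD1 in the other, and ATF3 and QARS1 did the reverse. IARS1, EIF2AK3 and VARS1 passed with shNBD1 but not between the controls.

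**Figure D3:**
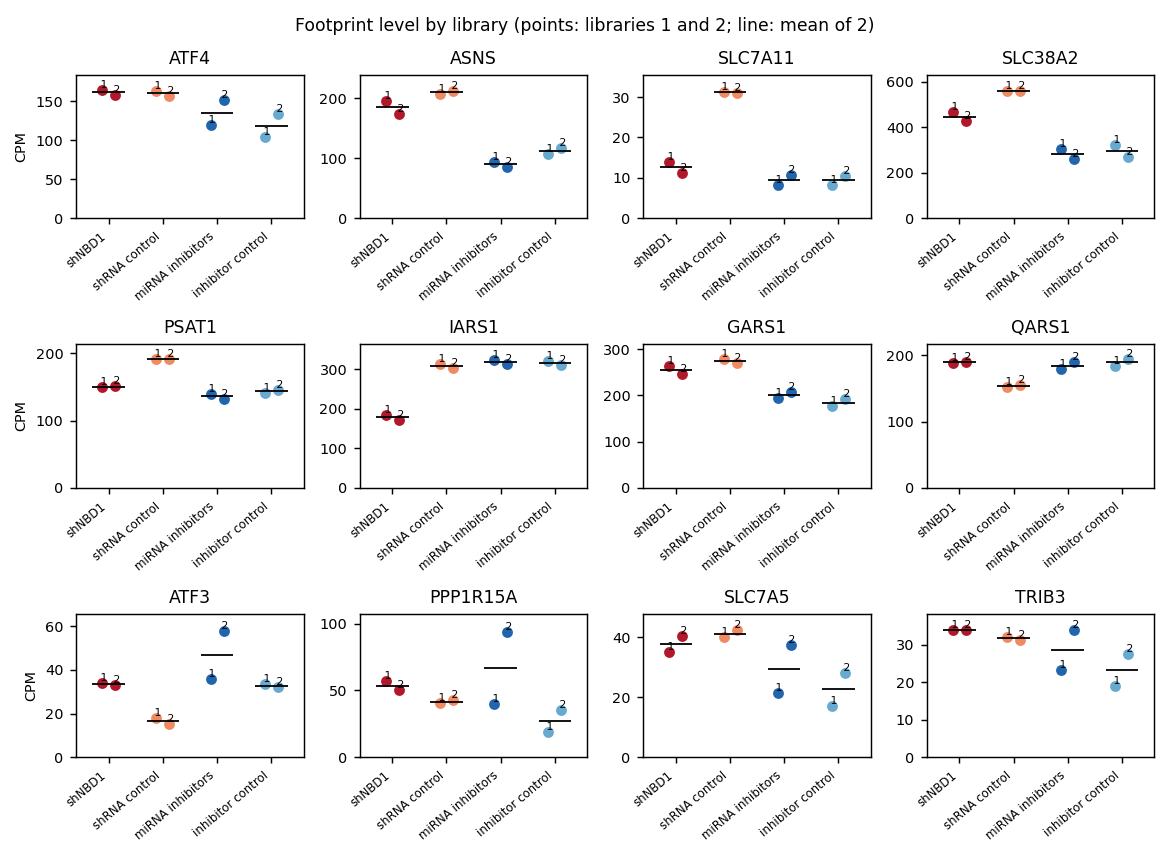
CPM of 12 genes in every library, on axes that start at 0, with points for libraries 1 and 2 of each group and a line for their mean. SLC7A11 is high only in the shRNA control (31.2 and 31.1 CPM), IARS1 low only with shNBD1 (185 and 172 CPM), ASNS and GARS1 are higher in both groups of the shRNA arm, and PPP1R15A, SLC7A5 and TRIB3 differ between library 1 and library 2 in the inhibitor arm.

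With the miRNA inhibitors none of the 49 genes passed the threshold in edgeR's test, where 16 of 13306 genes (0.12%) were called, 0.0376% higher and 0.0827% lower, and DESeq2 called none either. At an unadjusted p under 0.05 there were 8 of 49, against 16.4% of all genes. The 2 smallest p-values belonged to ASNS and PPP1R15A. ASNS had 94.2 and 86.2 CPM with the inhibitors against 107 and 117 CPM in their control, without overlap, at -0.31 ± 0.08 on the log2 scale (adjusted p = 0.137). PPP1R15A had 39.7 and 93.9 CPM against 19.1 and 35.1 CPM, at 1.28 ± 0.34 (adjusted p = 0.138). The 2 libraries of PPP1R15A lay far apart within each group.

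PHGDH, with 271 and 244 CPM against 307 CPM in each control library, stood at -0.25 ± 0.07 (adjusted p = 0.148, edgeR), and ATF3, with 35.6 and 57.7 CPM against 33.3 and 32.2 CPM, at 0.49 ± 0.17. ATF4 stood at 0.19 ± 0.13 with overlapping libraries, and VLDLR, with 38.4 and 26.6 CPM against 39.7 and 29.4 CPM, at -0.07 ± 0.17. The median of all 49 genes was 0.01, as it was over all genes. Inhibitor libraries lay above both controls for 8 genes and below them for 7, against 20.5% and 20.3% of all genes. The synthetases ran from -0.08 for SARS1 to 0.32 for FARSA.

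The inhibitor arm varied more between its libraries, and these genes took part in that. The SD between replicates on the log2 scale was 0.279 with the inhibitors and 0.29 in their control over the 49 genes, against 0.246 and 0.215 over all genes. With shNBD1 and in the shRNA control it was 0.0967 and 0.105 over the 49 genes, against 0.187 in each over all genes. In both groups of the inhibitor arm library 2 was the higher one for 29 of the 49 genes and the lower one for 9, against 35.2% of all genes higher and 35.1% lower. By over 1.2-fold it was higher in both groups for 13 genes and lower for 3, against 8.86% of all genes higher and 4.52% lower.

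Of these 13, 7 were regulators and 3 transporters. TRIB3 had 23.2 and 34.0 CPM with the inhibitors and 18.9 and 27.5 CPM in their control, against 31.3 to 34.0 CPM over the shRNA arm. SLC7A5 had 21.4 and 37.5 CPM and 17.0 and 28.2 CPM in the same groups. The higher inhibitor library reached the range of the shRNA arm for both genes and the higher control library stayed below it, while ASNS and SLC38A2 stayed below it in all 4 libraries, at 86.2 to 117 CPM and 259 to 324 CPM. Library 1 of the inhibitor control and library 2 of the inhibitors were also the extremes of the third principal component over all genes (20.4 and -23.5). Without these 2 libraries, a choice made after seeing the data, 31 of the 49 genes were higher and 5 lower in the shRNA control than in the inhibitor control, with 21% and 21.2% of all genes called. With the inhibitors 1 gene was then higher and 5 lower, with 1.7% and 2.02% of all genes called.

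The effects of both treatments differed for 4 of the 49 genes in the test of the difference itself, 3 lower and 1 higher, against 7.44% of all genes (3.96% lower and 3.48% higher). IARS1 (difference -0.79 ± 0.09 on the log2 scale, adjusted p = 0.00144, edgeR) passed in all 13 alternatives. SLC7A11 gave -1.28 ± 0.23 (adjusted p = 0.01), RARS1 -0.39 ± 0.09 (adjusted p = 0.0313) and QARS1 0.35 ± 0.09 (adjusted p = 0.0493). With the inhibitors IARS1 stood at 0.01 ± 0.07, SLC7A11 at -0.02 ± 0.17, RARS1 at 0.16 ± 0.07 and QARS1 at -0.04 ± 0.07. SLC7A11 fell short without either shRNA control library or without shNBD1 replicate 2, RARS1 in 6 and QARS1 in 7 of 13 alternatives.

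**Figure D4:**
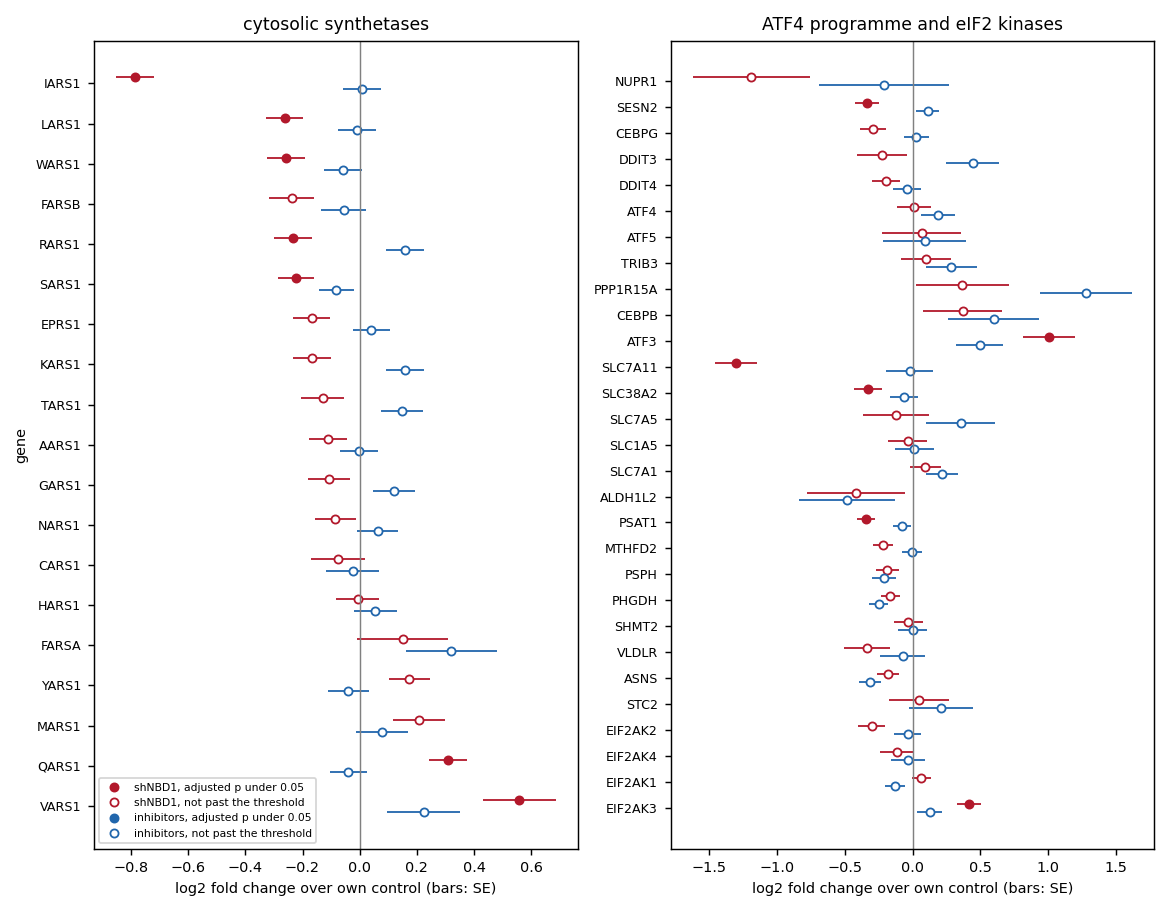
Log2 fold changes with shNBD1 (red) and with the miRNA inhibitors (blue), each over its own control, for 19 synthetases on the left and the 29 other genes on the right, with bars for the SE and filled points for an adjusted p under 0.05. IARS1 (-0.79) and SLC7A11 (-1.30) are the lowest filled red points of their panels, and no blue point is filled.

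Other genes of these pathways were followed in lists chosen by function. Of 24 further ATF4 targets tested, 9 were higher in the shRNA control than in the inhibitor control and 1 was lower, against 13.5% and 13.6% of all genes. GDF15, a stress-induced cytokine that p53 also induces, led at 1.77 ± 0.20 on the log2 scale, with SLC1A4, a carrier of neutral amino acids, at 0.56 ± 0.10 and XPOT, the tRNA exportin, at 0.44 ± 0.08. In 13 of the 24 all 4 libraries of the shRNA arm lay above the inhibitor arm and in 1 below it, against 14.4% and 15% of all genes. With shNBD1 the list was mixed, with 4 that rose and 2 that fell against 9.18% and 9.15% of all genes. PYCR1, of proline synthesis, rose by 0.78 ± 0.12, while GDF15 stood at -1.53 ± 0.20 and TNFRSF10B, a death receptor, at -0.47 ± 0.08. None passed with the inhibitors.

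In the 4 further lists that follow, the shares to set beside the counts are 13.5% of all genes higher and 13.6% lower between the controls, and 9.18% and 9.15% with shNBD1. Mitochondrial synthetases, which charge the organelle's own tRNAs, had 1 of 15 higher in the shRNA control, CARS2 at 0.30 ± 0.07, and none called with shNBD1. Subunits of eIF2 and eIF2B and their regulators had 2 of 13 higher and 1 lower between the controls, with EIF2B1 at 0.28 ± 0.07, IMPACT, an inhibitor of the kinase GCN2, at 0.45 ± 0.12 and PPP1R15B at -0.39 ± 0.11, and none called with shNBD1. Further folate and one-carbon genes had 2 of 13 higher and 3 lower, with ALDH1L1 at -1.01 ± 0.23, the glycine cleavage enzyme GLDC at -0.89 ± 0.09 and GCSH, of the same system, at -0.39 ± 0.09. With shNBD1 3 of these 13 fell, among them ALDH1L1 at -1.19 ± 0.30 and GLDC at -0.36 ± 0.10. ALDH1L1 rested on few counts, from 15 with shNBD1 to 134 in the inhibitor control. Targets of IRE1 and ATF6, the other branches of the endoplasmic reticulum stress response, had 5 of 13 higher and 1 lower between the controls (median 0.18), with CRELD2 at 0.42 ± 0.08 and PDIA4 at -0.34 ± 0.07, and 1 each way with shNBD1. None of the genes in these 4 lists passed with the inhibitors.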

How the data were processed

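The authors deposited whole-number counts of mapped reads per gene and transcript, not normalized and with no header, in which absent features were taken as 0. The submitters' processing notes name cutadapt, Bowtie and the build GRCh38. The sources used here give no versions, no counting tool and no rule for reads that match several features. The 18037 features were summed to 17179 symbols. No row lacked a name. All 49 genes passed the filter.

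Groups were compared with edgeR 4.0.16 (limma 3.58.1, R 4.3.3): filterByExpr with a minimum count of 10 and a minimum total of 15, TMM scaling, and quasi-likelihood fits of the 4 groups to the 8 libraries (4 residual degrees of freedom). Benjamini-Hochberg adjustment ran over 13306 genes, with 0.05 as the threshold. CPM use TMM-scaled library sizes. Fold changes carry the SE implied by the test. SD over 2 libraries is given for group means. In each group the replicates differed beyond sampling noise (chi-square over its degrees of freedom 1.42 to 21.1). DESeq2 1.42.0, RLE size factors, other filters, fewer libraries and a replicate term were alternatives. The steps were tested on simulated counts.

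The 49 genes, the lists and the named-gene rule (every member may be named; values in every library for ATF4, for genes called with either treatment or in the difference, and for the 2 of smallest p in roles without such a call, and for some called only between the controls; up to 3 called genes per further list) were chosen with earlier results of these data known. Levels are compared only within a gene. Coordinates and promoter windows are those of RefSeq, GRCh38.p14; 49 genes had a locus and 39 a window. Some genes that enter the counts are not reported here by name, and 1 of them is left out of the figures.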

Additional observations from a re-analysis of the deposited data

Results flagged for a closer look

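In 4 of the 49 genes (8.16%) the effect of shNBD1 differed from that of the miRNA inhibitors, against 7.44% of all genes tested. The count thus lies near the share over all genes. It comes from the test of the difference (edgeR, 4 libraries in each arm). IARS1 gave a difference of -0.79 on the log2 scale (adjusted p = 0.00144), SLC7A11 -1.28 (adjusted p = 0.01), RARS1 -0.39 (adjusted p = 0.0313) and QARS1 0.35 (adjusted p = 0.0493). In IARS1 both shNBD1 libraries lay apart from the other 6, and in SLC7A11 both shRNA control libraries did. With 2 libraries in a group, no group was large enough to look for a single library out of range.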

How the results depend on the processing

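Of the calls on single genes, 2 of 13 with shNBD1, 1 of 4 in the difference and 6 of 28 between the controls held in every alternative. Without 1 library of the comparison, where the lone library of its group is assumed to vary like the others, 0 to 1 genes rose and 2 fell with shNBD1 (4 and 9 with all libraries), 0 to 5 rose and 0 to 2 fell with the inhibitors (0 and 0), 0 to 3 and 1 to 6 were called higher and lower in the difference (1 and 3), and 6 to 30 and 0 to 3 between the controls (26 and 2). The shRNA arm's own 4 libraries gave 9 genes that rose and 23 that fell with shNBD1 (4 and 9 with all libraries). Over all genes these shares were 21.5% and 20.4%. DESeq2 gave 0 higher in the difference in place of 1, with 2.65% of all genes called higher. With no filter on low counts 1 gene, PPP1R15A, rose with the inhibitors, against 0.431% of all genes. With the replicate block 14 fell with shNBD1 (12.6% of all genes), and 1 rose and 1 fell with the inhibitors (2.67% and 2.4%). In the difference 5 were then lower in place of 3 (7.3% of all genes). The labels do not say that a replicate number marks a shared batch or day, and 2 numbers do not settle the pairing: over all genes, differences between library 2 and library 1 correlated at 0.015 between shNBD1 and its control and at 0.42 between the inhibitors and theirs. Without inhibitor control replicate 1 and inhibitor replicate 2 together, a choice made after seeing the data, 1 rose and 5 fell with the inhibitors, 5 were lower between the controls, and VLDLR with the inhibitors turned to 0.38 (adjusted p = 0.0283, edgeR) from -0.07. The cause was not tested. The widest errors with shNBD1 were those of NUPR1 (SE 0.43) and ALDH1L2 (SE 0.36), both of few counts. PPP1R15A came next (SE 0.34), though it had 374 to 993 counts.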
